A study of Mus musculus with 8 samples.

Results

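Glucocorticoid-responsive genes were examined in the retinal pigment epithelium (RPE)/choroid of aging mice. The group comprised 10 genes: the glucocorticoid receptor gene Nr3c1, and Fkbp5, Tsc22d3, Zbtb16, Klf9, Cebpd, Sgk1, Pdk4, Mt1 and Mt2, which glucocorticoids are known to induce in many tissues. The 10 genes, and the gene lists used further on, were chosen with earlier results of these data known. Counts over them therefore describe the genes and are not a test. No measured value was used to choose among the probe sets of a gene. Members were found by name, as every probe set annotated to a single one of these genes. This gave 30 probe sets, 7 for Klf9, 6 for Nr3c1, 4 for Tsc22d3, 3 each for Fkbp5 and Zbtb16, 2 each for Cebpd and Mt1, and 1 each for Mt2, Pdk4 and Sgk1, out of 45037 probe sets tested and out of 18193 genes with a probe set of their own. The study's own list of genes altered with age on these arrays holds Fkbp5, Tsc22d3 and Zbtb16, so that their direction here is not independent evidence.

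RPE/choroid is the pigmented epithelium behind the photoreceptors together with the vascular layer that nourishes it. Tissue was taken from male C57BL/6 mice, 4 young samples at 4 months and 4 old samples at 26 months, and RNA was measured on the Mouse 430 2.0 array of Affymetrix with 1 array per sample. A sample was RNA from 4 RPE/choroids of 2 animals, so a replicate is a pool of 2 mice and the p-values refer to the spread between pools. Age was the factor compared, and the labels give neither a treatment nor a hormone level.

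Glucocorticoids, corticosterone in the mouse, are released by the adrenal cortex and enter cells freely. They bind the receptor encoded by Nr3c1, which then leaves its chaperone complex, moves to the nucleus and binds a palindromic DNA element near target genes, so that some genes are induced and many inflammatory genes are repressed. Inside cells Hsd11b1 regenerates the active hormone and Hsd11b2 inactivates it. Several of the target genes also answer to other signals, the metallothioneins to zinc and oxidative stress, Pdk4 to fasting and fatty acids, and Cebpd to inflammatory cytokines.

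The glucocorticoid response element can be read directly in promoter sequence of Sgk1. RefSeq windows (build GRCm38.p6) of 250 bases before to 50 bases after a transcription start were at hand for 7 of the 10 genes, 14 windows in all, with 6 for Sgk1, 3 for Tsc22d3 and 1 each for Fkbp5, Klf9, Pdk4, Mt1 and Mt2. Zbtb16, Cebpd and Nr3c1 had none. The letters searched, on both strands, were the full palindromic glucocorticoid response element (AGAACA, any 3 bases, TGTTCT), a single arm of it (AGAACA), the metal response element (TGCGCNC or TGCACNC), the E-box (CACGTG) and the TATA box (TATAAA). The 250 bases before the start are given here for 5 windows, 5′ to 3′ on the gene's strand, with matches to the first 4 motifs in capitals: Sgk1 for the full palindrome, Fkbp5 and Tsc22d3 as genes that were higher in old animals under every processing setting tried, and Mt1 and Mt2 for the metal elements.
Sgk1, chr10:21993640-21993889, plus strand: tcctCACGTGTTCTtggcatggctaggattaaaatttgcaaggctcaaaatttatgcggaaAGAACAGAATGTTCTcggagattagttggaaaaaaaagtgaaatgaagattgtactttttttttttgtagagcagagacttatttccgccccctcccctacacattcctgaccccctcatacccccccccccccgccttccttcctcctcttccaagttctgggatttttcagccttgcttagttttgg
Fkbp5, chr17:28486150-28486399, minus strand: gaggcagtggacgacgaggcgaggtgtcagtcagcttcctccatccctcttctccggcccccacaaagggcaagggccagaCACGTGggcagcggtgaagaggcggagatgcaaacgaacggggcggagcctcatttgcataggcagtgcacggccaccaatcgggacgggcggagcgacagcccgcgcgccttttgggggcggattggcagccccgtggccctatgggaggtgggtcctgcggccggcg
Tsc22d3, chrX:140600523-140600772, minus strand: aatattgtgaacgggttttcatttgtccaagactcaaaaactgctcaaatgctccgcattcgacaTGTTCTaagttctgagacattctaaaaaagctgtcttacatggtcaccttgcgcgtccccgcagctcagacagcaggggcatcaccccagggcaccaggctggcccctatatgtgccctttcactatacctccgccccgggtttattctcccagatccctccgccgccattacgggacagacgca
Mt1, chr8:94178839-94179088, plus strand: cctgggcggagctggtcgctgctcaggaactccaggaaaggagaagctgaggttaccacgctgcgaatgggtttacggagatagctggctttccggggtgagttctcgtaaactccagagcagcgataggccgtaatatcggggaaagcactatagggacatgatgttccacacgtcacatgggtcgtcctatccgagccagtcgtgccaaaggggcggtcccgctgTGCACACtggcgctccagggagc
Mt2, chr8:94172368-94172617, plus strand: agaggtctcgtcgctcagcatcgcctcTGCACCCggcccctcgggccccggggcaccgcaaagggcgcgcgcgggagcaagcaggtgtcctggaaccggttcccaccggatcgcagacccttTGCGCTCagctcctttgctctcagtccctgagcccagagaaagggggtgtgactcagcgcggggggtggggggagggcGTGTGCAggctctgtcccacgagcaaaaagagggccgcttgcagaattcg

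In the printed Sgk1 window the full palindrome begins 189 bases before the start. A further single arm, on the other strand, lies 242 bases before it and overlaps an E-box. Of the other 5 Sgk1 windows, 2 hold a single arm, at 195 and 13 bases before the start, and none the full palindrome. The full palindrome was present in 3 of 32851 mouse promoter windows of this length (0.00913%), those of Sgk1, Acnat2 and Gm35041, whereas a single arm was present in 19.0%. The printed Tsc22d3 window holds a single arm, 185 bases before the start, and the other 2 of its 3 windows hold none. The Fkbp5 window holds no arm and an E-box 169 bases before the start, a motif found in 7.15% of all windows. The metal element, found in 25.7% of all windows, occurs once before the Mt1 start, at 23 bases, and 3 times before the Mt2 start, at 223, 128 and 50 bases. The Klf9 and Pdk4 windows hold none of the 5 motifs. These matches describe letters in a short window and not binding sites.

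Fkbp5, Tsc22d3 and Zbtb16 were 3.07-fold, 2.24-fold and 2.85-fold higher in the RPE/choroid of old animals, Cebpd and Pdk4 were 1.64-fold and 1.48-fold higher, and no difference in Nr3c1, Sgk1, Mt1 or Mt2 passed the test. Of the 30 probe sets, 11 were higher and 0 lower in old animals at an adjusted p under 0.05 (limma, Benjamini-Hochberg over all 45037 probe sets). At an unadjusted p under 0.05, 16 were higher and 1 lower. The count of 11 was 7 without young replicate 3 or without old replicate 3 and 16 without old replicate 1. The share of all probe sets that were higher was 6.28% without young replicate 3 or old replicate 3 and 9.51% without old replicate 1. Of all probe sets tested, 9.22% were higher and 8.75% lower. The median log2 fold change was 0.32 over the 30 probe sets and -0.02 over all probe sets. Past the study's own threshold, a fold over 2 with an adjusted p under 0.01, were 7 of the 30 probe sets, all higher, beside 0.764% of all probe sets that were higher and 0.0799% that were lower by this rule. This count of 7 was 1 without old replicates 2 and 4.

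Counted by the brightest probe set of each gene, judged by mean log2 intensity and called its representative here, Fkbp5, Tsc22d3, Zbtb16, Cebpd and Pdk4 were higher, 5 of 10 genes, and none was lower at either the adjusted or the unadjusted p (limma). Of all genes, 11.8% were higher and 9.56% lower. Fkbp5, Tsc22d3 and Zbtb16 passed the study's threshold, 3 of 10 genes against 1.13% of all genes. The count of 5 was 3 without young replicate 1, 2 or 3 or old replicate 2 or 3, where Cebpd and Pdk4 lost their calls. Klf9 was higher by 1 of its other probe sets. All old arrays lay above all young arrays in 9 of the 30 probe sets, against 12.3% of all probe sets. In whole tissue such as this, fewer cells of a type and less RNA per cell cannot be told apart.

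**Figure D1:**
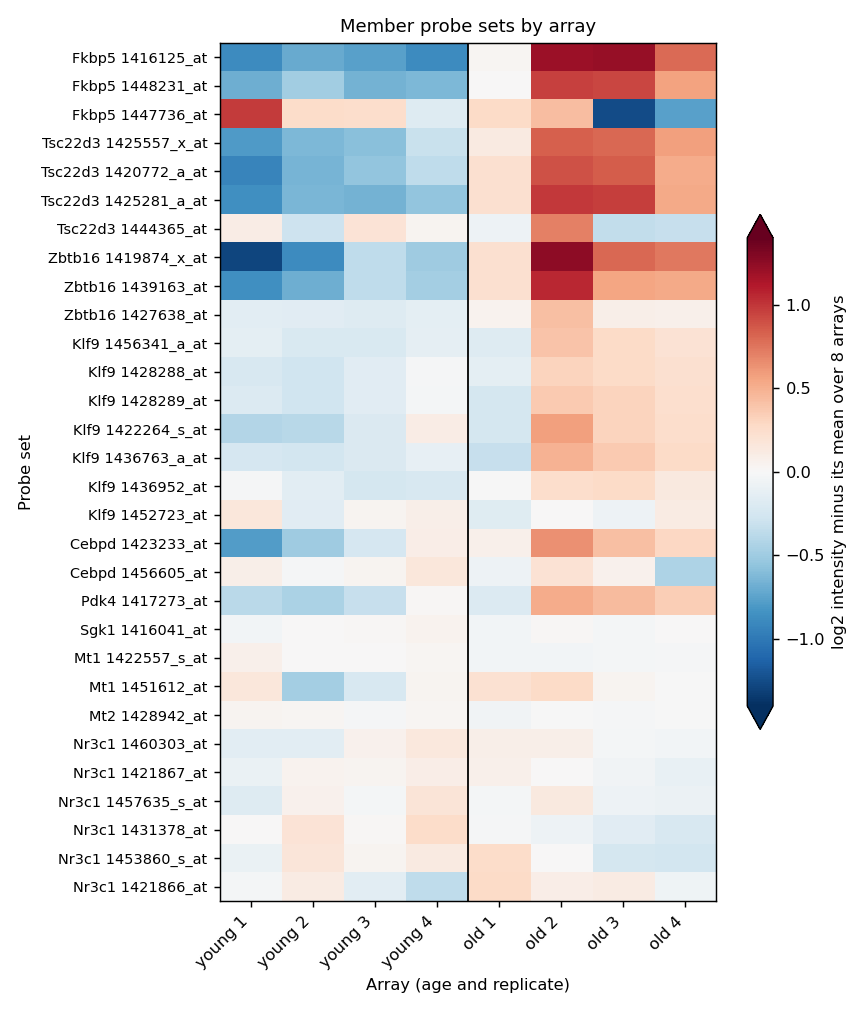
Log2 intensity of the 30 probe sets (rows) in 4 young and 4 old arrays (columns), each row centred on its mean over the 8 arrays, with red above and blue below that mean. Fkbp5, Tsc22d3 and Zbtb16 show the strongest contrast between the ages, and old replicate 1 is paler than the other old arrays in their rows.

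The arrays of both ages were alike in overall signal, with median intensities of 129 to 135 and correlations across probe sets of 0.991 to 0.995 within an age and 0.981 to 0.989 between ages. No array pair was identical. Markers of the tissue were present: Rpe65, the isomerohydrolase of the visual cycle, was between 10929 and 12118 in young and between 10806 and 11414 in old arrays, Rlbp1, which carries retinaldehyde, at 7755 to 10184 over all 8, and Tyr, the tyrosinase of pigment cells, at 3918 to 5645. The endothelial genes Pecam1 and Cdh5 were at 289 to 363 and 127 to 192. The ratio of the 3′ to the 5′ probe set of actin, a measure of RNA integrity, was 1.57 to 1.75 in young arrays, with replicates 1 and 2 lowest, and 1.62 in old replicate 1 against 1.71 in each other old array. Intensities are linear and depend on the probes, so levels are compared only within a probe set.

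The receptor gene Nr3c1, on chromosome 18, showed no change with age that passed the test in any of its 6 probe sets. Its representative, 1460303_at, was at 843, 842, 974 and 1038 in the young arrays and at 992, 988, 921 and 909 in the old arrays. The ages overlapped, and the old values lay inside the young range. The fold change was 1.03 (95% interval 0.912 to 1.17, adjusted p = 0.716 by limma), an interval that leaves room for differences smaller than these bounds. The log2 fold changes of all 6 probe sets ran from -0.24 to 0.21.

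Probe set 1431378_at of Nr3c1 stood nearest to a difference. It was at 199, 227, 201 and 236 in the young arrays and at 195, 189, 177 and 169 in the old arrays. All old values lay below all young values, though by only a little for old replicate 1. The log2 fold change was -0.24 (SE 0.08 on the log2 scale, adjusted p = 0.0607 by limma), and it passed under 4 of 17 alternative settings. Another of the group's probe sets had the same arrangement, 1422557_s_at of Mt1, so that 2 of 30 were lower without overlap, against 12% of all probe sets. Old replicate 4 was the lowest old array in 6 of 6 Nr3c1 probe sets, and old replicate 1 the highest in 5 of 6. These probe sets read 1 gene on the same arrays, so they are not independent. The same share over all probe sets was not computed.

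Fkbp5, on chromosome 17, encodes a co-chaperone of the receptor complex that lowers the affinity of the receptor for hormone and is itself induced by it, a short feedback loop. By 1416125_at it was at 331, 373, 359 and 332 in the young arrays. In the old arrays the same probe set was at 620.4, 1394, 1420.0 and 1061. The ages were fully apart, with old replicate 1 nearest to the young arrays. Fkbp5 rose 3.07-fold (95% interval 2.14 to 4.39), a log2 fold change of 1.62 (standard error, SE, 0.23, adjusted p = 0.00198 by limma). It was the largest log2 fold change among the 30 probe sets.

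Probe set 1448231_at gave the same picture for Fkbp5, with 129.8, 148, 131 and 134 in young and 209, 404, 396 and 308 in old arrays. The fold change was 2.35 (95% interval 1.76 to 3.14, adjusted p = 0.00266 by limma), again without overlap. The remaining probe set of Fkbp5, 1447736_at, was near the bottom of the scale, between 5.46 and 12.2 in young and between 2.6 and 8.35 in old arrays (log2 fold change -0.65, adjusted p = 0.267). Probe sets 1416125_at and 1448231_at were called in 17 of 17 alternative settings.

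Tsc22d3, on the X chromosome, encodes GILZ, a leucine zipper protein that mediates part of the anti-inflammatory action of glucocorticoids. Its representative, 1425557_x_at, was at 645, 722, 747 and 899.7 in the young arrays. In the old arrays it was at 1220.3, 1993, 1958 and 1662, with old replicate 1 again the lowest of the old and still above the highest young value. Tsc22d3 rose 2.24-fold (95% interval 1.75 to 2.88), a log2 fold change of 1.17 (SE 0.16, adjusted p = 0.00164 by limma). The suffix x marks probes that may bind other transcripts, but 1420772_a_at and 1425281_a_at, which lack it, were 2.37-fold and 2.56-fold higher.

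The smallest adjusted p of the group belonged to 1425281_a_at of Tsc22d3 (adjusted p = 0.000787 by limma). It was at 347, 402, 397 and 427 in young and at 734, 1242, 1226 and 904 in old arrays, without overlap. These 3 probe sets of Tsc22d3 were called in 17 of 17 alternative settings. The fourth, 1444365_at, was between 92.8 and 129.8 in young and between 89.2 and 184 in old arrays, with a log2 fold change of -0.02 (95% interval -0.51 to 0.47, adjusted p = 0.961). The probe sets of the gene therefore disagreed, 3 against 1.

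Zbtb16, on chromosome 9, encodes PLZF, a zinc finger repressor that is strongly induced by glucocorticoids in several cell types. By 1419874_x_at it was at 169, 223, 321 and 291 in the young arrays. It was at 482, 981, 716 and 687 in the old arrays, with old replicate 2 the highest and old replicate 1 the lowest. The ages did not overlap, and Zbtb16 rose 2.85-fold (95% interval 1.96 to 4.15), a log2 fold change of 1.51 (SE 0.24, adjusted p = 0.00349 by limma).

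A probe set of Zbtb16 without the x suffix, 1439163_at, was at 123, 139, 175 and 161 in young and at 261, 464, 328 and 323 in old arrays. Its fold change was 2.27 (95% interval 1.74 to 2.96, adjusted p = 0.00211 by limma). The remaining probe set, 1427638_at, moved less, from 84.1 to 86.5 in young to 98.6, 128, 101 and 100.2 in old arrays (log2 fold change 0.31, adjusted p = 0.0326). The call of 1427638_at was lost with the replicate block (adjusted p = 0.0553), without each young array in turn (adjusted p = 0.0611 to 0.0804) and without old replicate 3 (adjusted p = 0.0554), whereas those of 1419874_x_at and 1439163_at held in 17 of 17 settings.

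**Figure D2:**
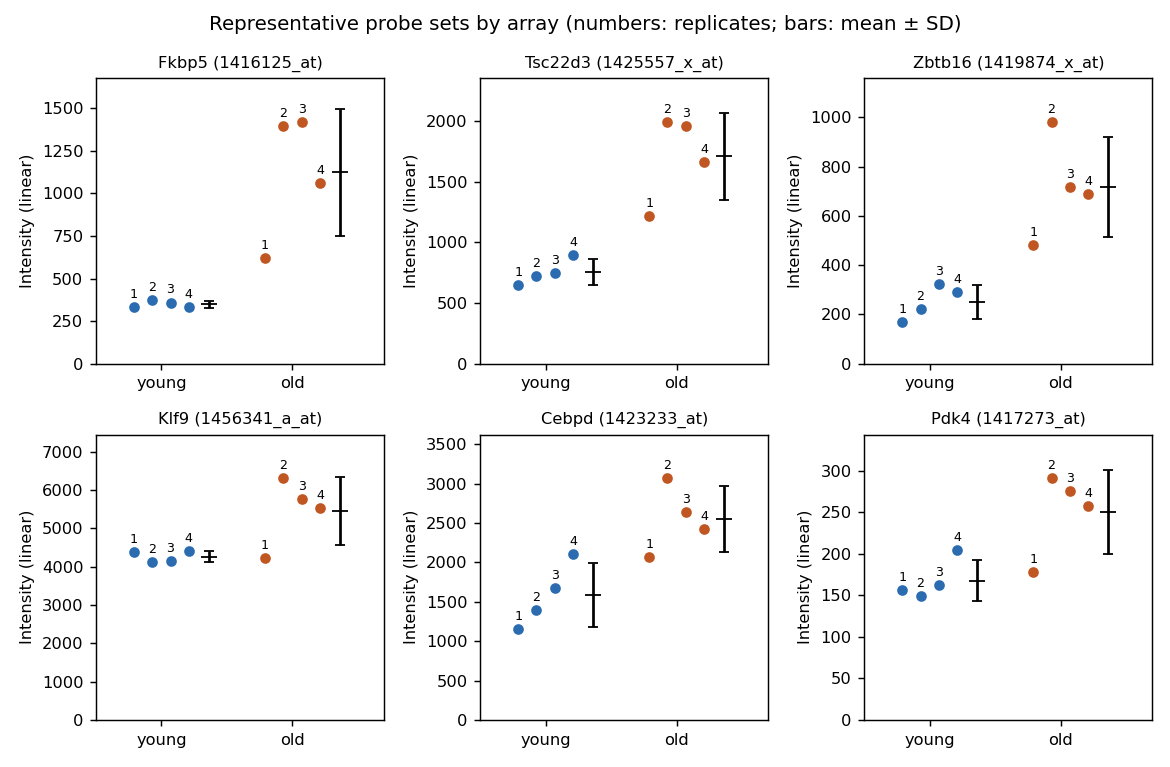
Intensity (vertical axes, linear, from 0) of the representative probe set of 6 genes in 4 young (blue) and 4 old (orange) arrays, with replicate numbers beside the points and mean ± SD in black. For Fkbp5, Tsc22d3 and Zbtb16 all 4 old arrays lie above all 4 young arrays, and for Klf9, Cebpd and Pdk4 old replicate 1 lies within the young range.

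Klf9, on chromosome 19, encodes a Krüppel-like factor that responds to glucocorticoids and thyroid hormone and represses part of the glucocorticoid response. It was called higher by 1 of 7 probe sets, 1436952_at, which was at 174, 159, 148 and 151 in young and at 175, 209.9, 212 and 194 in old arrays. The values of old replicate 1 and young replicate 1 nearly met. The fold change was 1.25 (95% interval 1.10 to 1.41, adjusted p = 0.0232 by limma), and the call was lost with the replicate block (adjusted p = 0.0664) and without young replicate 3 or 4 or old replicate 2 or 3 (adjusted p = 0.0595 to 0.0674).

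The representative of Klf9, 1456341_a_at, was at 4374, 4128, 4137 and 4406 in the young arrays. It was at 4223 in old replicate 1, within the young range, and at 6307, 5767 and 5524 in old replicates 2 to 4. The log2 fold change of 0.34 (SE 0.11) did not pass the test over all arrays (adjusted p = 0.0625 by limma), and without old replicate 1 it was 0.46 (adjusted p = 0.0028). It was called in 5 of 17 settings. Probe sets 1422264_s_at, 1428288_at, 1428289_at and 1436763_a_at also did not pass over all arrays, with log2 fold changes of 0.33 to 0.45 (adjusted p = 0.0557 to 0.101 by limma). Without old replicate 1 these were 0.44 to 0.61 (adjusted p = 0.00146 to 0.0187). In that order they were called in 1, 6, 2 and 2 of 17 settings. For 1428288_at, 1428289_at and 1436763_a_at these included settings that kept all arrays, such as array weights. Probe set 1452723_at of Klf9 had a log2 fold change of -0.06 (adjusted p = 0.655).

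Cebpd, on chromosome 16, encodes a basic leucine zipper factor of the early response to glucocorticoids and cytokines. Its representative, 1423233_at, spread widely within the young arrays, at 1152, 1399, 1672 and 2104. The old arrays were at 2071, 3071, 2645 and 2421, so that old replicate 1 and young replicate 4 overlapped. Cebpd rose 1.64-fold (95% interval 1.23 to 2.17, adjusted p = 0.0267 by limma). The call was lost without young replicate 1, 2 or 3 or old replicate 2 or 3 (adjusted p = 0.0514 to 0.0692) and with the trended, robust variance model (adjusted p = 0.058). The second probe set, 1456605_at, was at 47.7 to 73.8 over the 8 arrays, and did not pass (log2 fold change -0.12, adjusted p = 0.513).

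Pdk4, on chromosome 6, encodes the kinase that switches off pyruvate dehydrogenase and so spares glucose during fasting. It was at 156, 149, 162 and 204 in the young arrays and at 178, 291, 275 and 257 in the old arrays. Old replicate 1 lay inside the young range, 1.07-fold over the young mean, and old replicates 2 to 4 were 1.65-fold over it. The fold change over all arrays was 1.48 (95% interval 1.15 to 1.89, adjusted p = 0.0377 by limma). The call was lost when young replicate 1, 2 or 3 or old replicate 2, 3 or 4 was left out (adjusted p = 0.0782 to 0.0983), and held in 9 of 17 settings.

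Sgk1, on chromosome 10, encodes the serum- and glucocorticoid-induced kinase that promotes sodium transport, and it is the gene whose window holds the full palindrome printed above. Its values were close in all arrays, at 8630.5, 8857, 8951 and 9135 in young and at 8621, 8969, 8704 and 8906 in old arrays. The ages overlapped throughout. The fold change was 0.99 (95% interval 0.918 to 1.07, adjusted p = 0.857 by limma), so a change of the size seen for Fkbp5, Tsc22d3 or Zbtb16 lies outside its interval.

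Mt1 and Mt2, neighbours on chromosome 8, encode metallothioneins, small cysteine-rich proteins that bind zinc and copper and are induced by metals, glucocorticoids and oxidative stress. Mt2 was at 9660.5, 9648, 9312 and 9581 in young and at 9114, 9429, 9339 and 9378 in old arrays, with a log2 fold change of -0.04 (95% interval -0.14 to 0.07, adjusted p = 0.631 by limma). By 1422557_s_at Mt1 was at 13876, 13243, 13298 and 13499 in young and at 12890.0, 12889.7, 13001 and 13096 in old arrays. Every old value of Mt1 was below every young value, yet the difference was small, a fold change of 0.962 (95% interval 0.895 to 1.03, adjusted p = 0.442). The other Mt1 probe set, 1451612_at, was between 87.6 and 136 in young and between 121 and 147 in old arrays, a log2 fold change of 0.26 (adjusted p = 0.218). The highest intensity on any array was 18607 to 19749, and whether 1422557_s_at of Mt1 and the probe sets of Mt2 and Sgk1 respond in proportion to RNA at this level was not tested.

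**Figure D3:**
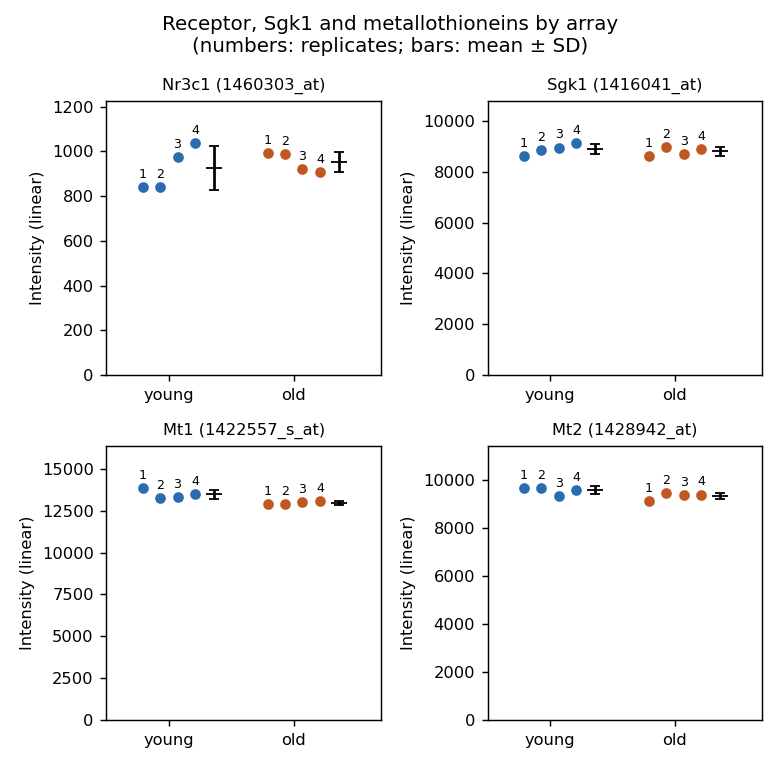
Intensity (vertical axes, linear, from 0) of the representative probe set of Nr3c1, Sgk1, Mt1 and Mt2 in 4 young (blue) and 4 old (orange) arrays, with replicate numbers beside the points and mean ± SD in black. The ages overlap for Nr3c1, Sgk1 and Mt2, and the old arrays of Mt1 lie just below the young arrays.

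**Figure D4:**
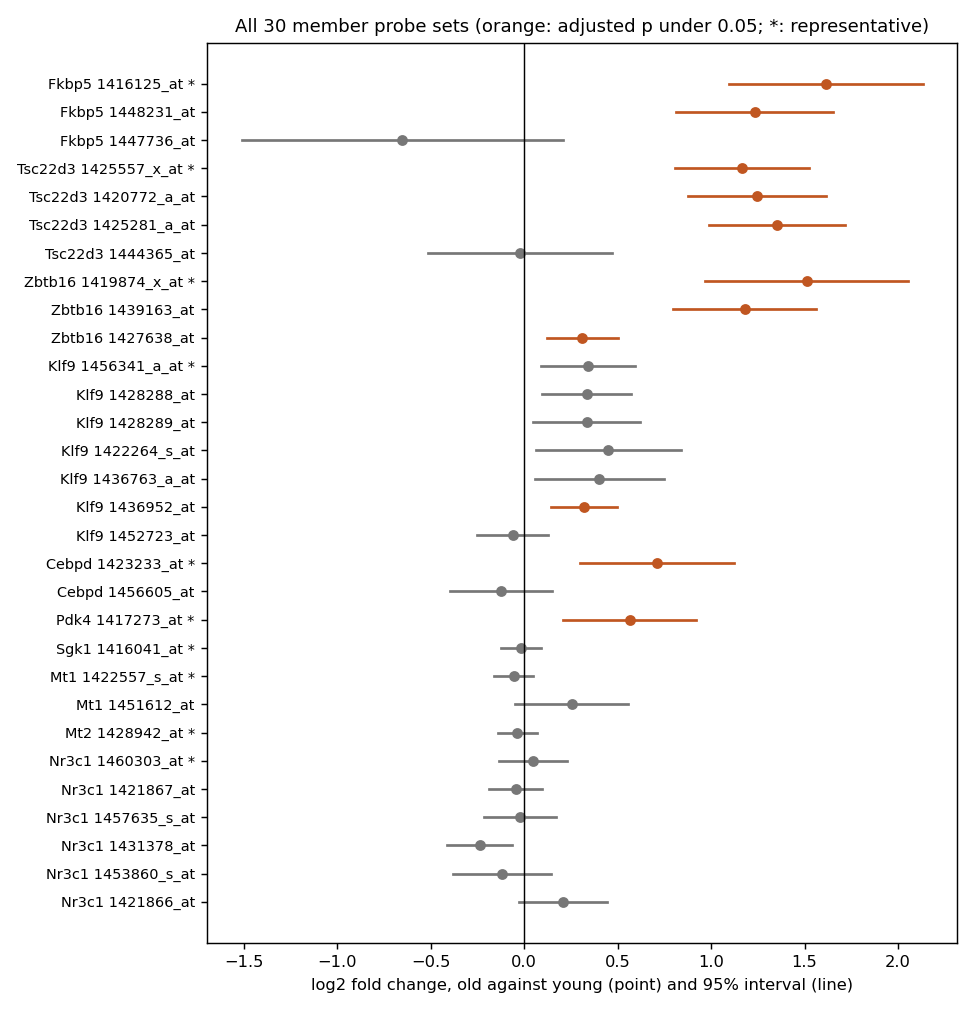
Log2 fold change of old against young (point) with its 95% interval (line) for the 30 probe sets, grouped by gene, orange where the adjusted p is under 0.05 and grey otherwise. The 7 probe sets past a log2 fold change of 1 belong to Fkbp5, Tsc22d3 and Zbtb16, and the narrow intervals of Sgk1, Mt1 1422557_s_at and Mt2 lie around 0.

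The rise was unequal among the old arrays, and the same array stood lowest each time. Among the 11 probe sets called higher, old replicate 1 was the lowest of the old arrays in 11, which was so for 50% of all probe sets called higher. Old replicate 2 was the highest in 9 of 11 (39.7% of all probe sets called higher) and old replicate 3 in 2 (37.7%). By 1416125_at Fkbp5 was 1.78-fold over the young mean in old replicate 1 and 3.67-fold over it in old replicates 2 to 4. The same values were 1.98-fold and 3.22-fold for Zbtb16 and 1.63-fold and 2.49-fold for Tsc22d3 by their representatives. For Cebpd they were 1.34-fold and 1.75-fold.

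The mean centred log2 value of the 10 genes, each by its representative, was -0.43, -0.35, -0.24 and -0.15 in young replicates 1 to 4 and 0.00, 0.49, 0.39 and 0.29 in old replicates 1 to 4. The young arrays thus differed among themselves as well. Among the 11 probe sets called higher, young replicate 1 was lowest in 8 and young replicate 4 highest in 6. Several of these probe sets read the same gene, and the shares over all probe sets called higher were not computed for the young arrays. The summed level of 12 immediate early genes, which many stimuli induce within minutes, was 6178, 8532, 12238 and 17687 in young replicates 1 to 4. Its order was that of the mean of the 10 genes. In the old arrays the summed level was 8265, 12548, 6995 and 6492, with old replicate 2 highest. The actin ratio given above was also lowest in young replicates 1 and 2 and in old replicate 1. The part of these measures in the spread of the 10 genes was not tested.

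Markers of immune cells differed between the same arrays. Of 10 macrophage markers, 7 were higher and 0 lower in old animals, among them Itgam, Cd68 and Trem2. The study reported Itgam as higher with age on these arrays, so its direction is not independent evidence. The summed level of the 10 markers was between 20014 and 22736 in young and between 29548 and 31684 in old arrays, with old replicate 1 at 30033. The summed level of 9 neutrophil markers was 1143 to 1389 in young arrays and 1517, 18191, 2651 and 2752 in old replicates 1 to 4, so that old replicate 1 was the lowest and old replicate 2 the highest of the old arrays, as for most of the called probe sets of the 10 genes. The test called 2 of these markers higher (S100a8 and Camp) and 1 lower (Cxcr2). Markers of adipocytes were summed between 869 and 1093 in young and between 1935 and 2661 in old arrays (2 of 6 higher, Fabp4 and Pparg). Their part in the changes of Fkbp5, Tsc22d3, Zbtb16, Cebpd and Pdk4 was not tested.

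The markers of RPE, melanocytes and endothelium that passed the test were lower in old animals. Of 10 RPE markers 0 were higher and 4 lower (Rlbp1, Lrat, Rdh5 and Slc16a8), with a summed level of between 85537 and 89063 in young and between 77948 and 81684 in old arrays. Of 7 melanocyte markers 6 were lower (45450 to 54333 in old against 57561 to 58813 in young arrays), and of 8 endothelial markers 7 (9414 to 11171 against 12059 to 14903). Old replicate 1 was the highest of the old arrays in all 3 sums. Intensities of markers of retinal cells varied between arrays, and no detection call was made for them. The 7 rod and cone markers summed to between 8052 and 16488 in young and between 6430 and 17035 in old arrays, with 0 passing. The 8 Mueller glia and astrocyte markers summed to between 25966 and 26896 in young and between 23863 and 25124 in old arrays. Of these, 1 was higher (Vim) and 5 lower (Fabp7, Slc1a3, Sox2, Gfap and Rlbp1). Rlbp1 is also among the RPE markers and so is counted in both sums. The 9 markers of inner retinal neurons summed to 7537 in old replicate 4 and between 5260 and 5440 in the other old arrays, against 8448 to 9698 in young arrays. Of these markers 1 was higher (Thy1) and 3 lower (Cartpt, Stmn3 and Slc6a9). Thy1 was also reported by the study as higher with age on these arrays, so its direction is not independent evidence. Lymphocyte markers were higher in 3 of 8 (Nkg7, Cd3d and Cd3g), fibroblast markers in 1 of 8 (Pdgfra) and skeletal muscle markers in 0 of 8, and Schwann cell markers were lower in 2 of 4 (Mbp and Sox10). Beside these marker counts, 11.8% of all genes were higher and 9.56% lower. No marker was at 0 in these lists, which does not show that each was expressed.

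Genes that handle the hormone differed with age in both directions. Of 14 measured genes of glucocorticoid synthesis, metabolism and transport, 3 were higher and 5 lower, with a median log2 fold change of -0.08. These were 21.4% and 35.7% of the list, beside 11.8% and 9.56% of all genes. Hsd11b1, which regenerates active hormone, was at 311 to 376 in young and at 459, 654, 521 and 478 in old arrays, and rose by 0.62 on the log2 scale (SE 0.11, adjusted p = 0.00643 by limma). H6pd, which supplies the cofactor of Hsd11b1, rose by 0.31, and the efflux pump gene Abcb1b by 1.0. Its paralog Abcb1a, the pump of the blood-brain and blood-retina barriers, fell by 0.36. The steroidogenic genes Cyp11b1, Cyp11a1 and Star, all at intensities of 35 to 165, fell by 0.60, 0.43 and 0.23, and the hormone precursor gene Pomc by 0.25. Cyp11b1 and Cyp11a1 lay below the array medians of 129 to 135 in every array, and Star, at 128 to 165, lay near them. Only 1 of 3 probe sets was called for Star and for Cyp11a1, and 1 of 2 for Abcb1a, for Abcb1b and for Pomc. Hsd11b2 was between 153 and 176 in young and between 137 and 159.6 in old arrays (log2 fold change -0.12, adjusted p = 0.249 by limma).

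Of 15 measured genes of the receptor machinery, each by its representative, 2 were higher (13.3%, beside 11.8% of all genes), the acetyltransferase Ep300 by 0.31 and the co-chaperone Bag1 by 0.24, and 1 was lower (6.67%, beside 9.56% of all genes), the coactivator Tgfb1i1 by -0.44 on the log2 scale, with a median of -0.06. Other probe sets were called lower for 4 more of the 15 genes, 2 of 5 for Hsp90aa1, 1 of 3 for Fkbp4, 1 of 2 for Smarca4 and 1 of 6 for Nrip1. By its representative, Fkbp4, the paralog of Fkbp5 that favours nuclear transport of the receptor, was between 886 and 1104 in young and between 803 and 982 in old arrays (log2 fold change -0.18, adjusted p = 0.177 by limma). Nr3c2, the mineralocorticoid receptor, which also binds corticosterone, was between 326 and 375 in young and between 353 and 385 in old arrays (log2 fold change 0.10, adjusted p = 0.324). The representative of Hsp90aa1, the chaperone that holds the receptor, had a log2 fold change of -0.10 (adjusted p = 0.182).

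Of 34 other measured genes that glucocorticoids are known to induce, 9 were higher and 0 lower (limma). These were 26.5% and 0% of the list, beside 11.8% and 9.56% of all genes. The median log2 fold change was 0.20, against -0.02 over all genes and 0.45 over the 10 genes. The 9 were Lcn2, Cdkn1a, Anxa1, Per1, Cebpb, Cdkn1c, Sult1a1, Gadd45g and Klf15. Anxa1, annexin A1, a mediator of anti-inflammatory steroid action, was at 2046 to 2466 in young and at 4405, 4966, 5168 and 4681 in old arrays (log2 fold change 1.08, adjusted p = 5.8e-05). Lcn2, an iron-binding protein that inflammation also induces, was at 115 to 167 in young and at 302, 1573, 729 and 524 in old arrays (log2 fold change 2.21, adjusted p = 0.00732). Per1, a clock gene with a known response element, was at 212 to 349 in young and at 303, 741, 561 and 513 in old arrays (log2 fold change 0.98, adjusted p = 0.028). Cdkn1a, an inhibitor of the cell cycle, rose by 1.11. Old replicate 1 was the lowest of the old arrays for 9 of these 9 genes, against 52.4% of all genes called higher. Foxo1, a transcription factor of the fasting response, did not pass here (log2 fold change -0.17, adjusted p = 0.0744) and was called lower in some alternative settings.

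Dusp1 and Tat, textbook targets, did not pass the test. Dusp1, a phosphatase that is also an immediate early gene, was at 1770.1, 2659, 2923 and 4185 in young and at 2664, 4146, 1993 and 2194 in old arrays (log2 fold change -0.06, adjusted p = 0.899 by limma). Tat, the liver enzyme tyrosine aminotransferase, was at 169 to 190.3 over the 8 arrays (log2 fold change 0.04, adjusted p = 0.644). Ddit4, an inhibitor of the growth kinase mTOR, was between 1404 and 2068 in young and between 1954 and 3801 in old arrays (log2 fold change 0.60, adjusted p = 0.0726).

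Inflammatory genes that glucocorticoids are known to repress were more often higher than lower. Of 17 genes of this kind, 6 were higher and 1 lower, with a median log2 fold change of 0.18. These were 35.3% and 5.88% of the list, beside 11.8% and 9.56% of all genes. The metalloprotease genes Mmp3 and Mmp13 rose by 3.48 and 3.02 on the log2 scale, the chemokine gene Ccl5 by 1.20, the adhesion molecule genes Icam1 and Vcam1 by 1.14 and 1.0, and Il1a by 0.41. Mmp3, Mmp13, Icam1 and Vcam1 are in the study's own list of genes altered on these arrays, so their direction is not independent evidence. Il12b, the shared subunit of IL-12 and IL-23, fell by 0.30. Il6 was between 16 and 21.8 in young and between 18.8 and 35.3 in old arrays (log2 fold change 0.43, adjusted p = 0.127 by limma). Ccl2, also in this list, was not called by its representative here. The study reported Ccl2 as higher with age on these arrays, by PCR and in protein.

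**Figure D5:**
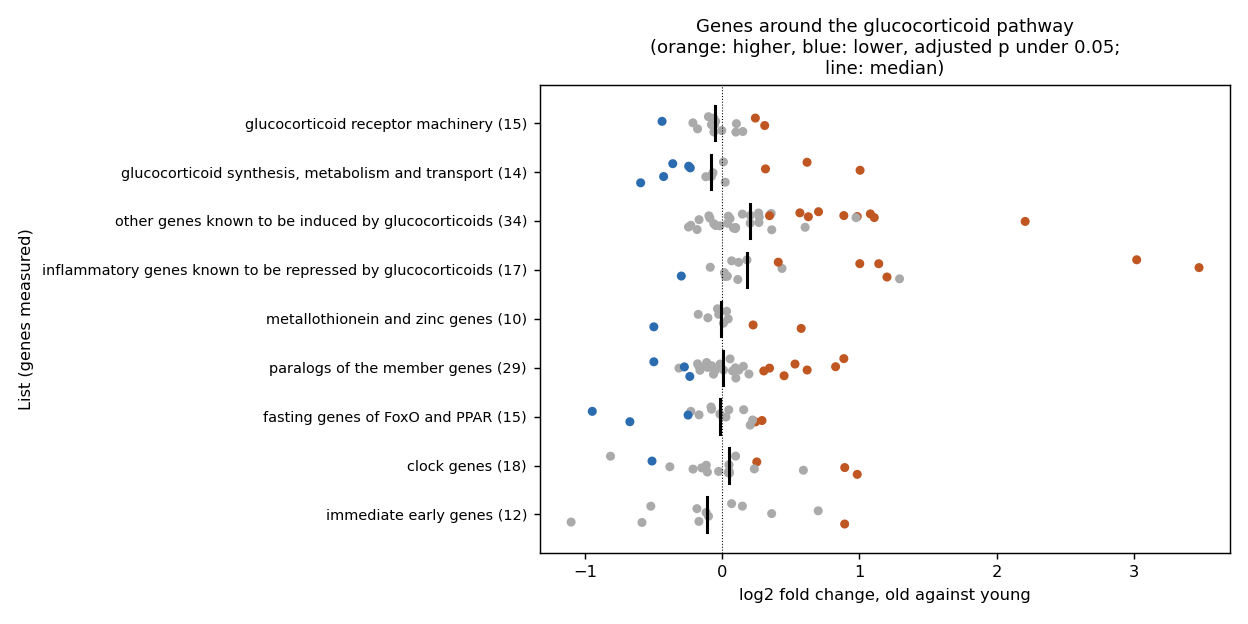
Log2 fold change of old against young (horizontal axis) for the genes of 9 lists, 1 point per gene by its representative probe set, with the number measured in brackets, orange for higher and blue for lower at an adjusted p under 0.05, and a black line at each list's median. The list of other induced genes holds 9 higher and 0 lower genes, and that of receptor machinery 2 higher and 1 lower.

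The families of the 10 genes gave further values. Of 29 measured paralogs, 7 were higher and 3 lower, with a median log2 fold change of 0.01. These were 24.1% and 10.3% of the list, beside 11.8% and 9.56% of all genes. Cebpb and Cebpa, relatives of Cebpd, rose by 0.89 and 0.83 on the log2 scale, Klf6, a relative of Klf9, by 0.62, and Zbtb7a, a relative of Zbtb16, by 0.53. Mt3, the neuronal metallothionein, was between 2353 and 2686 in young and between 1737 and 1805 in old arrays and fell by 0.50 (adjusted p = 0.000878 by limma). Sgk3, a relative of Sgk1, fell by 0.28 and Klf16 by 0.24. Of 10 metallothionein and zinc genes, the transporter genes Slc39a14 and Slc39a1 were higher, by 0.57 and 0.22, and Mt3 was lower. The shares higher and lower in this list were 20% and 10%. Mtf1, the factor that binds the metal element, had a log2 fold change of 0.04 (adjusted p = 0.705).

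Of 15 measured fasting genes, the kind of signal that Pdk4 also answers to, 2 were higher (Txnip by 0.29, Ehhadh by 0.24) and 3 lower (Fabp3 by -0.95, Ppargc1a by -0.68, Slc25a20 by -0.25 on the log2 scale). Of 18 clock genes, 3 were higher (Per1 by 0.98, Cry1 by 0.89, Cry2 by 0.25) and 1 lower (Npas2 by -0.51), with a median of 0.04. Of the 12 immediate early genes, Atf3 was higher, by 0.89, and 0 were lower, with a median of -0.11. In the fasting, clock and immediate early lists, 13.3%, 16.7% and 8.33% were higher, beside 11.8% of all genes. The shares lower were 20%, 5.56% and 0%, beside 9.56% of all genes.

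The genes whose pattern over the 8 arrays was most like that of Fkbp5 were chosen by the root mean square difference between log2 values, each gene centred on its own mean. They were Galnt15 (0.14), Slc15a3 (0.17), Saa3 (0.19), Fcgr2b (0.20) and Fcgr4 (0.20). Galnt15, a glycosyltransferase, was at 63.9 to 69.6 in young and at 149.5, 299, 278 and 227 in old arrays. Its order of arrays reflects the choice by likeness to Fkbp5 and is not a separate result. Saa3 is an acute phase protein, and Fcgr2b and Fcgr4 are Fc receptors of myeloid cells. The study reported Fcgr2b as higher with age on these arrays, so its direction is not independent evidence. Of the other 9 genes of the group, Tsc22d3 ranked at 56 and Zbtb16 at 57 among all genes in likeness to Fkbp5, and Cebpd, Pdk4 and Klf9 at 429, 472 and 938. Nr3c1, Sgk1, Mt2 and Mt1 ranked at 7352, 8181, 8938 and 10008. The measure is not scaled by the size of a gene's change. These ranks therefore largely follow the fold changes given above and are not a separate result.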

How the data were processed

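RPE/choroid RNA of 4 young and 4 old samples had been measured on the Mouse 430 2.0 array of Affymetrix. The deposited intensity values are linear and had been normalized by the authors by a step the table does not name. Their methods name RMA, Dchip and BRB-ArrayTools, and which gave the table is not given in the sources used here. Of 45101 probe sets, 64 controls were left out, a floor of 1 was applied (8 to 14 values of an array), and values were put on the log2 scale. Old was compared with young in limma 3.58.1 (R 4.3.3) with no covariate and Benjamini-Hochberg adjustment over 45037 probe sets. The number of arrays limits the precision. Genes were named through the 34945 probe sets that GEO's platform annotation ties to a single gene (932 name several, 9160 none).

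The 10 genes, lists and tests were chosen with earlier results of these data known. Named were the 10 genes with all probe sets, in each pathway list up to 4 called genes that changed most, up to 3 per marker list, Rpe65, Rlbp1, Tyr, Pecam1 and Cdh5, the 5 genes nearest to Fkbp5, and every gene of a count of 5 or fewer. Other genes named with values, such as Fkbp4, Nr3c2, Hsd11b2 and Dusp1, were picked after their values were seen. Alternatives covered floors, a filter on dim probe sets, normalization, variance model, array weights, a replicate block, choice of probe set, and leaving out arrays. The fit was tested on simulated data.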

Additional observations from a re-analysis of the deposited data

Results flagged for a closer look

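Of 60 groups of 4 arrays, the young and the old values of each of the 30 probe sets, 1 held an array far from the others. For Zbtb16 by 1427638_at, old replicate 2 was at 128 while the remaining 3 lay between 98.6 and 101, so that its gap to the nearest array was 0.925 of the range of the old arrays (above Dixon's critical value for 4 samples). Some such gaps arise by chance at this number of groups. The Zbtb16 probe sets 1419874_x_at and 1439163_at also had old replicate 2 highest, at 981 and 464, without such a gap.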

How the results depend on the processing

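Across 17 alternative settings, 1416125_at and 1448231_at of Fkbp5, 3 of Tsc22d3 (1420772_a_at, 1425281_a_at and 1425557_x_at) and 1419874_x_at and 1439163_at of Zbtb16 kept their call, while Cebpd 1423233_at kept it in 10, Klf9 1436952_at in 11 and Pdk4 in 9, and Zbtb16 1427638_at in 9 of 16. With each array left out in turn, the count of probe sets higher was 7 (without young replicate 3 or old replicate 3) to 16 (without old replicate 1), that of genes higher 3 (without young replicate 1, 2 or 3 or old replicate 2 or 3) to 6 (without old replicate 1), and that past the study's threshold 6 to 7. Without old replicates 2 and 4 together, which carry the high neutrophil and inner retinal levels, 7 probe sets and 3 genes were higher, 1 probe set passed the study's threshold, and 4 other induced genes were higher. Of all probe sets, 4.45% were higher in that setting. The count of probe sets lower was 1 (Nr3c1 1431378_at) with log2 of the value + 32, the filter on dim probe sets, the trended and robust variance or array weights. The other induced genes gave 14 higher with log2 of the value + 32 or the filter, and 1 lower (Foxo1) with log2 of the value + 32, a floor of 16, the filter, quantile normalization or the trended and robust variance. Leaving out 1 array gave 0 to 1 lower (Cd163 without old replicate 2). The share of all probe sets that were higher was 10.5% with log2 of the value + 32 and 18.7% with the filter. Signs turned near 0: Nr3c1 1457635_s_at was 0.00698 with median centring and -0.0834 to 0.0364 with an array left out, Nr3c1 1460303_at -0.00791 with quantile normalization and -0.0174 with array weights, Tsc22d3 1444365_at 0.00637 with quantile normalization, 0.00825 with median centring and -0.26 to 0.0921 with an array left out, and Sgk1 0.0129 with median centring. No scaling moved the median of all probe sets by over 0.1. Over all probe sets, 4154 were higher and 3939 lower, against 3984 and 4227 with quantile normalization and 4819 and 3023 with median centring. The cause of these shifts was not tested. The labels do not say whether the replicate numbers pair young with old samples. Same-numbered arrays had correlations of 0.0971, 0.019, 0.0219 and 0.0427 after the age effect was removed. Among the old arrays, the same-numbered one was the closest for young replicate 1 but not for young replicates 2, 3 and 4. Such correlations over all probe sets cannot decide whether arrays were paired. With the replicate block, 9 probe sets were higher, and of the 30 calls 28 stayed, with Zbtb16 1427638_at and Klf9 1436952_at lost.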
